A study of Mus musculus with 3 samples.

Results

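miR-15a, miR-15b and miR-16 are the mature miRNAs of 2 small genomic clusters and share 1 seed. They were taken by exact probe name from the serum panel and make up 3 of its 566 probes. The data are 3 serum pools from mice carrying 4T1 tumours, used as a model of triple-negative breast cancer: 2 pools from mice with Tn+ tumours and 1 pool from mice with Tn- tumours. Tn is a truncated O-glycan that cells display when their O-glycans stop growing early. Per the labels, the 4T1/Tn+ line was made with CRISPR/Cas9 and a guide against exon 2 of Cosmc, which encodes a chaperone needed for O-glycan extension. The labels call the other tumours Tn- and say no more of their cells. All mice were female BALB/c, bought at 6 to 8 weeks of age, given 100000 cells in a mammary fat pad and killed on day 28. Serum was pooled within each tumour status before RNA extraction. Groups had at least 8 mice, but neither the mice per pool nor whether the Tn+ pools hold separate mice is stated. The Tn- pool has no replicate. The p-values rest only on spread between the Tn+ pools, a probe's own combined with that of the other probes.

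miRNAs of this family pair through their seed with messenger RNAs of cell-cycle and survival genes, among them Ccnd1, Ccne1 and Bcl2, and restrain proliferation. The human cluster of miR-15a and miR-16-1 is known as a tumour suppressor lost in chronic lymphocytic leukaemia. miR-16 is abundant in red blood cells and is often taken as a reference miRNA in serum and plasma, where release from red cells raises it.

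The mature sequences are shown because a probe's reading depends on how far the members differ. They are from RefSeq (GRCm38.p6), 5′ to 3′, with the seed, bases 2 to 8, in capitals.
miR-15a: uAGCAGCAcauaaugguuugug
miR-15b: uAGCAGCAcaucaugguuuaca
miR-16: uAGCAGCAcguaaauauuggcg
miR-195: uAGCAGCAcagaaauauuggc
miR-497: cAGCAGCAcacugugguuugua
miR-322: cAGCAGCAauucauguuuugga
The 7 seed bases are the same in all of them. miR-15a and miR-15b are identical at 18 of 22 positions, and their first difference, counted from the 5′ end, is A12C. miR-15a and miR-16 are identical at 16 of 22, and miR-15b and miR-16 at 14 of 22. The nearest relative of miR-16 is miR-195, which differs from it at 2 of 21 positions, G10A and U11G.

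miR-16 has 2 genes. Mir16-1 lies at chr14:61631880-61631972 on the minus strand, 54 bases from Mir15a (chr14:61632027-61632110, minus strand), and both lie within the bounds of the long non-coding RNA gene Dleu2. Mir16-2 lies at chr3:69009902-69009996 on the plus strand, 66 bases from Mir15b (chr3:69009772-69009835, plus strand), and both lie within the bounds of Smc4, which encodes a condensin subunit. The hairpins of the miR-16 genes are shown, with the mature miR-16 in capitals, because both give the same 22 bases, so that the miR-16 probe cannot tell the clusters apart while miR-15a and miR-15b each come from 1 of them.
Mir16-1: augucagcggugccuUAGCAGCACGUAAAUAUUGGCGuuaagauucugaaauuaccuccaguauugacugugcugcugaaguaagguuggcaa
Mir16-2: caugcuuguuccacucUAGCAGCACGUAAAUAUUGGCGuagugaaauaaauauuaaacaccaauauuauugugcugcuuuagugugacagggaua

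The pools differed in total before any member is considered. The summed signal of all probes was 59444 and 31977 units in the Tn+ pools, against 4204 units in the Tn- pool, and 228, 150 and 85 probes lay above the floor, the lowest value that most probes of a pool share. The values are the authors' normalized signal, and the number of raw counts behind a unit is unknown. Low values lay on a grid of about 1 unit (0.895 and 1.09 units in the Tn+ pools, 1.08 in the Tn- pool), so a difference of a few units is a difference of a few grid steps. All 3 members lay above the floor in every pool, as 60 probes did.

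miR-16 (MIMAT0000527), the product of both clusters, was among the highest probes in every pool. It had 2610 and 1506 units in the Tn+ pools, against 176 units in the Tn- pool. Its rank among all probes was 2 and 5 in Tn+ serum, against 3 in Tn- serum. Both Tn+ pools lay well above the Tn- pool and differed from each other by 1.73-fold. The ratio to the Tn- pool was 14.8-fold in Tn+ pool 1 and 8.55-fold in Tn+ pool 2. As a share of each pool's total, miR-16 made up 4.39% and 4.71% in the Tn+ pools, against 4.19% in the Tn- pool. Its share thus differed far less between pools than its signal did. Without miR-451, the red-cell miRNA that led every pool, the share was 15.9% and 8.01% in the Tn+ pools, against 7.50% in the Tn- pool.

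miR-15a (MIMAT0000526), the partner of Mir16-1, had 167 and 33.3 units in the Tn+ pools, against 1.58 units in the Tn- pool. The Tn+ pools lay 5.03-fold apart, and both lay above the Tn- pool. The Tn- value is the lowest that pool shows above its floor of 1.08 units. The ratios to it, 106-fold and 21.1-fold, therefore rest on a value near the floor. Set over 3 grid steps of the Tn- pool (3.23 units), Tn+ pool 1 was 51.8-fold and Tn+ pool 2 10.3-fold higher. That is not a lower limit, since the counts taken off as background are unknown. Its share of the total was 0.281% and 0.104% in the Tn+ pools, against 0.0376% in the Tn- pool.

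miR-15b (MIMAT0000124), the partner of Mir16-2, followed another pattern. It had 226 and 9.32 units in the Tn+ pools, against 6.96 units in the Tn- pool. Tn+ pool 1 was high, while Tn+ pool 2 lay close to the Tn- pool. The Tn+ pools differed by 24.3-fold, against 1.34-fold between Tn+ pool 2 and the Tn- pool. The values of Tn+ pool 2 and the Tn- pool stood 7 and 5 grid steps above the lowest measured value of their pools. In share of the total, the Tn- pool (0.166%) lay between Tn+ pool 1 (0.381%) and Tn+ pool 2 (0.0291%).

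**Figure D1:**
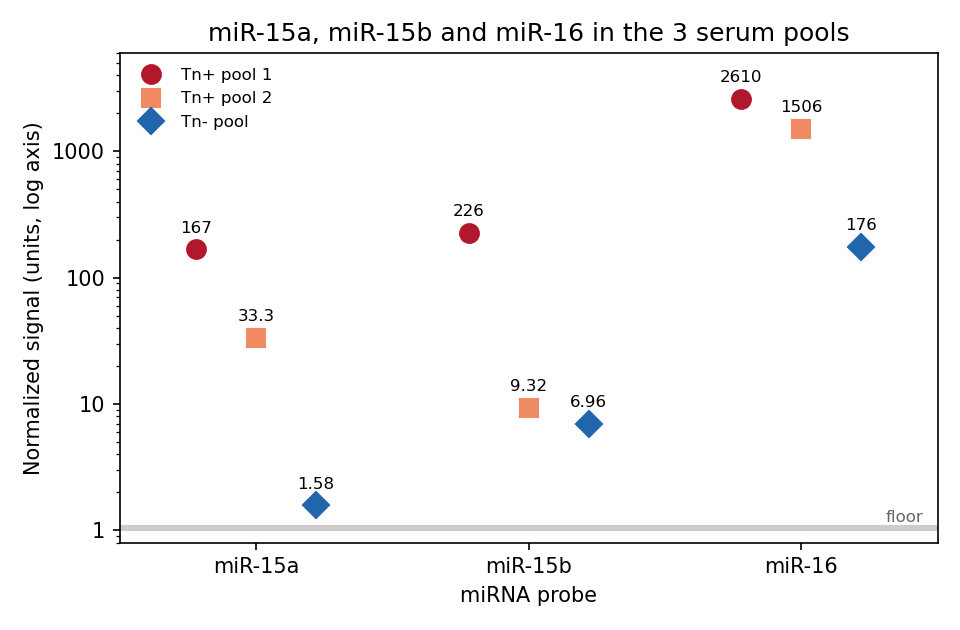
Normalized signal in units (log axis) of miR-15a, miR-15b and miR-16, 1 point per pool, with the grey band marking the floors of the 3 pools. miR-16 lies at 2610 and 1506 units in the Tn+ pools, against 176 in the Tn- pool, while miR-15b in Tn+ pool 2 (9.32 units) lies beside the Tn- pool (6.96 units).

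Signal was compared between Tn+ and Tn- serum by fitting log2(signal + 1) of all 566 probes in limma, where a log2 ratio is the mean of the Tn+ pools less the Tn- pool. No member passed a Benjamini-Hochberg adjusted p of 0.05, and neither did any other probe (0% called). An unadjusted limma p under 0.05 was reached by 63 probes in either direction (11.1%), and with higher Tn+ signal by 9.89% of all probes and by 2 of the 3 members, miR-16 and miR-15a. For miR-16 the log2 ratio was 3.49 (SE 0.470, 95% interval 1.75 to 5.22, limma adjusted p = 0.248). For miR-15a it was 4.88 (SE 1.30, interval 0.094 to 9.66, limma adjusted p = 0.431). For miR-15b it was 2.61 (SE 2.50, interval -6.64 to 11.9, limma adjusted p = 0.895). Of the fitted probes, 307 never rose above the floor. Their Tn+ values differ only by the floors of those pools, as for miR-195 (1.0 and 1.09 units, SE 0.157). That small spread enters the SE of every probe. With these 307 left out, the SE of miR-16 was 1.15, a value pooled over probes. The narrow interval of miR-16 is therefore not read as its measured spread. Restricted to the 259 probes measured above the floor in any pool, limma called 11.2% of them, all higher in Tn+ serum, among them miR-16 (adjusted p = 0.0258) and miR-15a (adjusted p = 0.00106) but not miR-15b (adjusted p = 0.152). The restricted fit gave every probe 1 pooled SE, so the gap between a probe's own Tn+ pools did not set its p-value. Its filter admits probes mostly through Tn+ signal, with 228 and 150 above the floor in the Tn+ pools, against 85 in the Tn- pool. The filter thus favours probes higher in Tn+ serum, and these calls are not read as support. In the fit over all probes the SE of miR-15b, nearly as large as its ratio, holds the gap between the Tn+ pools. With 5 in place of 1 added to the signal, miR-15a no longer reached an unadjusted limma p under 0.05. Single-pool log2 ratios to the Tn- pool on signal + 1 were 3.88 and 3.09 for miR-16, 6.03 and 3.73 for miR-15a, and 4.84 and 0.37 for miR-15b.

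By size alone, 2 of the 3 members, miR-15a and miR-16, were higher by 2-fold or more on signal + 1 in each Tn+ pool, against 12.0% of all probes and 46.7% of the 60 measured above every floor. All 3 lay above the Tn- pool in both Tn+ pools, as did 71.7% of those 60. Among the 60, the median log2 ratio to the Tn- pool was 1.43 in Tn+ pool 1 and 1.64 in Tn+ pool 2. In Tn+ pool 1, miR-15a ranked 1, miR-15b 4 and miR-16 12 of 60 by this ratio. In Tn+ pool 2 they ranked 6, 49 and 10. miR-15a and miR-16 were thus in the upper part of the order in both Tn+ pools, and miR-15b in Tn+ pool 1 alone. The ranks of miR-15a rest on its Tn- value near the floor.

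The gap between the Tn+ pools was itself large for the cluster partners. At least 2-fold between Tn+ pools were 51.7% of the 60 probes and 2 of the 3 members, miR-15a and miR-15b. By the size of this gap miR-15b ranked 1 of 60, with a log2 difference on signal + 1 of 4.46. The probe after it, miR-669h-5p, had 2.31 (12.4 units in Tn+ pool 1 and 1.70 in Tn+ pool 2), and miR-15a, with 2.30, ranked 3. miR-16, at 0.79, ranked 40, below the median absolute gap of 1.08. Both partners were higher in Tn+ pool 1, whereas the median gap over the 60 probes was -0.10.

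**Figure D2:**
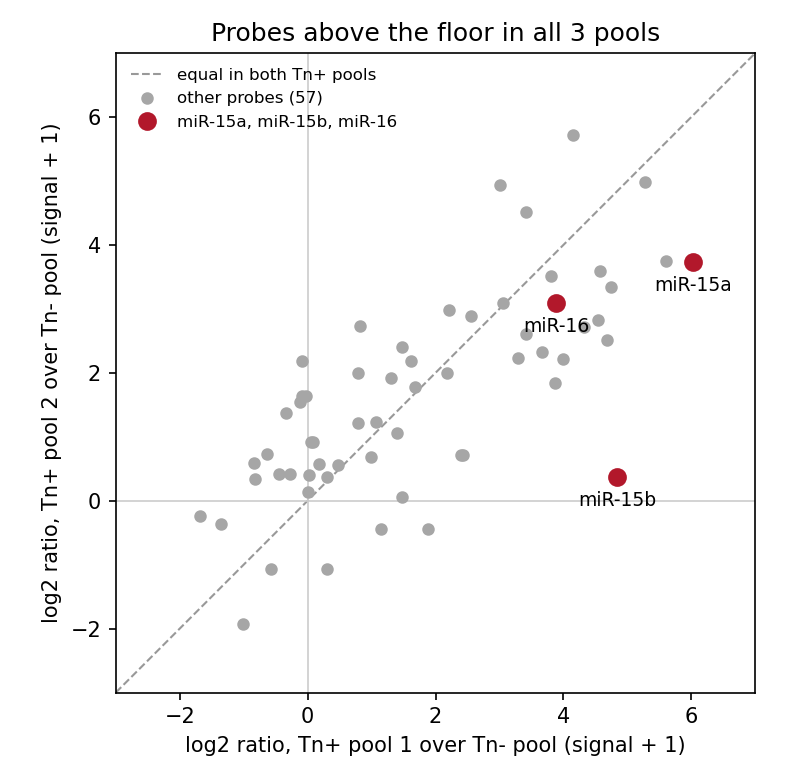
Log2 ratio to the Tn- pool on signal + 1, Tn+ pool 1 on the horizontal and Tn+ pool 2 on the vertical axis, for the 60 probes measured above every floor (members in red, the other 57 in grey, dashed line at equality). miR-16 lies near the line, and miR-15b lies farthest below it, at 4.84 and 0.37.

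The balance of miR-16 against its partners was taken as the ratio of signals within a pool, which no scaling between pools can move. Probes may capture their targets unequally, so the ratio is no count of molecules per molecule, and only its difference between pools is read. miR-16 over miR-15a was 15.6 and 45.3 in the Tn+ pools, against 111 in the Tn- pool. The Tn- pool had the highest ratio, but its miR-15a value is near the floor: with miR-15a raised by 3 grid steps the Tn- ratio was 36.6, below that of Tn+ pool 2. On the log2 scale the balance was 4.73 ± 1.09 over the Tn+ pools (SD, n = 2), against 6.80 in the Tn- pool, a difference of -2.07. The gap between the Tn+ pools was 1.54. The difference was -1.30 without Tn+ pool 1 and -2.84 without Tn+ pool 2.

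miR-16 over miR-15b was 11.5 and 162 in the Tn+ pools, against 25.3 in the Tn- pool. The Tn- pool lay between the Tn+ pools. Moving miR-15b by 3 grid steps up or down kept this order, with 11.4 to 11.7 in Tn+ pool 1, 120 to 249 in Tn+ pool 2 and 17.3 to 47.3 in the Tn- pool. The log2 balance was 5.43 ± 2.69 over the Tn+ pools (SD, n = 2), against 4.66 in the Tn- pool, and its difference of 0.77 was smaller than the gap of 3.81 between the Tn+ pools. Without Tn+ pool 2 the difference turned to -1.13, and without Tn+ pool 1 it was 2.68.

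Against both partners summed, miR-16 stood at 6.63 and 35.4 in the Tn+ pools, against 20.6 in the Tn- pool. The log2 difference was -0.43, against 2.42 between the Tn+ pools, and it was 0.78 without Tn+ pool 1 and -1.64 without Tn+ pool 2. Of the summed signal of the 3 probes, miR-16 held 86.9% and 97.3% in the Tn+ pools, against 95.4% in the Tn- pool. The ratio of the partners differed too: miR-15a over miR-15b was 0.739 and 3.57 in the Tn+ pools, against 0.227 in the Tn- pool, where it rests on the miR-15a value near the floor. With 2 pools against 1, an exact permutation test cannot give a p below 0.333, so no balance could pass 0.05.

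**Figure D3:**
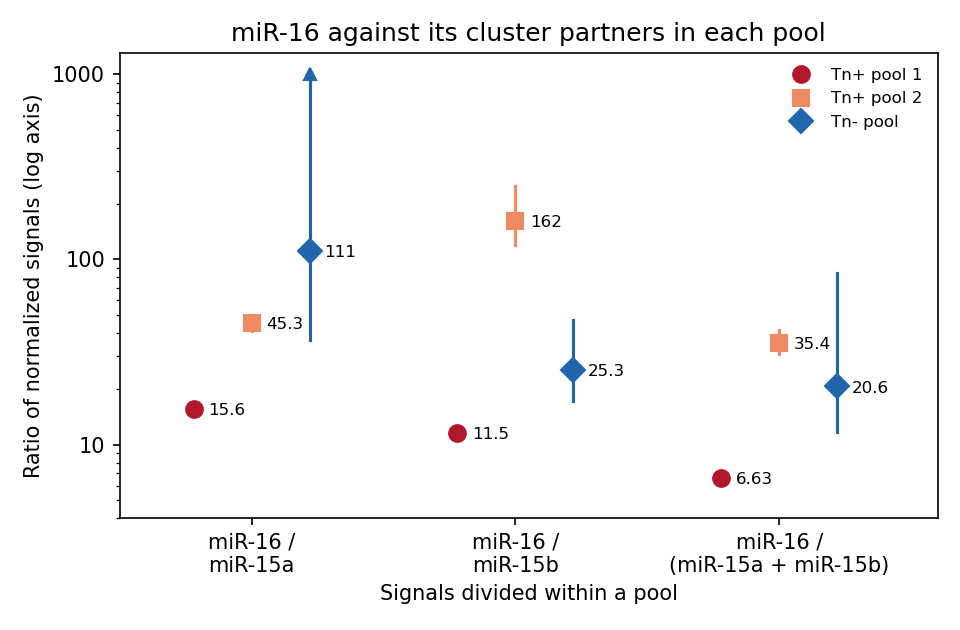
Ratio of the miR-16 signal to miR-15a, to miR-15b and to their sum within each pool (log axis), with lines spanning the ratio when each partner is moved up or down by 3 grid steps, and an arrow where the lower partner value would reach 0. The Tn- pool is highest for miR-15a (111) and lies between the Tn+ pools for miR-15b (25.3, against 11.5 and 162).

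Since the totals differed between pools, the ratios were also taken after scaling. Median-of-ratios scaling on the 60 probes removed a 3.18-fold excess of the Tn+ pools over the Tn- pool. The log2 ratio was then 3.56 for miR-15a, 1.82 for miR-16 and 1.08 for miR-15b, and miR-15b was above the Tn- pool in Tn+ pool 1 (3.36) and below it in Tn+ pool 2 (-1.20). miR-15a and miR-16 were still higher by 2-fold or more in each Tn+ pool, against 5.83% of all probes. All probes include the 307 at the floor in every pool, and the share among the 60 was not computed after scaling. With equal totals, a 10.4-fold excess was removed, and the log2 ratio was 2.05 for miR-15a, 0.12 for miR-16 and -0.57 for miR-15b. miR-15a was the 1 member 2-fold or more above the Tn- pool in each Tn+ pool under all 4 scalings. The share of all probes by this rule was computed for median-of-ratios scaling alone. The Tn- value of miR-15a, near the floor, enters each of its ratios.

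**Figure D4:**
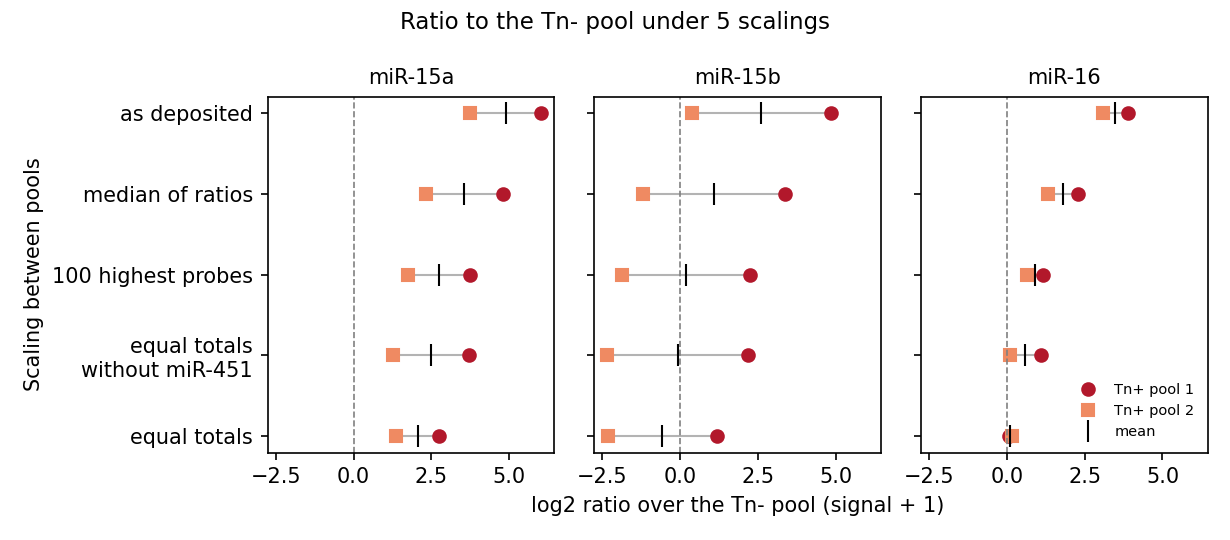
Log2 ratio to the Tn- pool on signal + 1 for each member under 5 scalings between pools, with circles for Tn+ pool 1, squares for Tn+ pool 2 and a bar at their mean. miR-15a stays to the right of 0 throughout, miR-16 approaches 0 with equal totals (0.12), and the pools of miR-15b fall on opposite sides of 0 under the 4 scalings other than the deposited one.

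Other miRNAs with the family's seed were at or next to the floor. miR-195, miR-497 and miR-322 were at the floor in every pool. The miR-195 probe thus read no more than 1.09 units in pools where miR-16, 2 bases different, read up to 2610. miR-503, of a related seed and encoded beside miR-322 on the X chromosome, had 1.67 units in Tn+ pool 1, its lowest measured value, and the floor in the other pools. None of these 4 was higher by 2-fold in each Tn+ pool, against 12.0% of all probes, and their passenger strands were not analysed here.

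The probes nearest in profile were found by the distance between log2(signal + 1) profiles centred over the 3 pools, using probes measured above every floor. Nearest to miR-16 were miR-27a (distance 0.384), miR-22 (0.386) and miR-23a (0.504). Nearest to miR-15a were let-7g (0.357), the joint miR-20a and miR-20b probe (0.933) and miR-148a (1.05). Nearest to miR-15b were miR-30c (1.73), miR-148a (1.82) and the joint miR-106a and miR-17 probe (1.94), all farther than the neighbours of the other members. No member was among the 3 nearest of another: from miR-16, miR-15a lay at 1.56 and miR-15b at 2.69. With 3 pools the likeness rests on 3 values a probe.

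Markers of blood cells were read beside the family because serum takes up miRNAs from them. In pooled serum, more cells giving a miRNA and more of it per cell cannot be told apart. Of 5 red-cell miRNAs, miR-451, miR-144, miR-486, miR-25 and miR-92a, the first 4 were higher by 2-fold or more in each Tn+ pool. By the same rule 12.0% of all probes were higher, and 46.7% of the 60 measured above every floor. The 5 summed to 46453 and 21112 units in the Tn+ pools, against 2063 units in the Tn- pool, and most of each sum was miR-451 (43043 and 13159 units in the Tn+ pools, against 1856 units in the Tn- pool). miR-486 and miR-25 ran the other way between the Tn+ pools. miR-486 had 1058 and 2268 units in them, against 98.6 units in the Tn- pool, and miR-25 had 1868 and 5513 units, against 104 units in the Tn- pool. miR-92a was at the floor in Tn+ pool 2, and miR-144 in the Tn- pool. The median log2 ratio of the 5 was 3.96, against 0.71 over the 259 probes measured above the floor in any pool, and miR-16 had 3.49. Over the 60 probes measured above every floor, miR-16 among them, the median was 1.47. The part of red cells in the miR-16 signal was not tested. Set against single red-cell miRNAs measured above every floor, miR-16 and miR-15a had no order of pools that held for all 3 divisors. miR-16 amounted to 6.06% and 11.4% of the miR-451 signal in the Tn+ pools, against 9.49% in the Tn- pool, which lay between them. Of miR-486 it amounted to 247% and 66.4% in the Tn+ pools, against 179% in the Tn- pool, with the Tn+ pools in the opposite order. Of miR-25 it amounted to 140% and 27.3% in the Tn+ pools, against 169% in the Tn- pool, the highest of the 3. miR-15a amounted to 0.389% and 0.253% of miR-451 in the Tn+ pools, against 0.0851% in the Tn- pool. Of miR-486 it was 15.8% and 1.47% in the Tn+ pools, against 1.60% in the Tn- pool, and of miR-25 8.96% and 0.603%, against 1.52% in the Tn- pool. Both Tn+ pools thus lay above the Tn- pool with miR-451 as divisor, and Tn+ pool 2 lay below it with miR-486 and miR-25. miR-15b amounted to 0.526% and 0.0708% of miR-451 in the Tn+ pools, against 0.375% in the Tn- pool, and the Tn- pool lay between the Tn+ pools with miR-486 and miR-25 as well. The haemolysis index miR-451 over miR-23a was 110 and 66.2 in the Tn+ pools, against 119 in the Tn- pool.

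Lists for other blood cells had less signal. The 3 platelet miRNAs (miR-223, miR-126-3p and miR-191) summed to 785 and 275 units in the Tn+ pools, against 138 in the Tn- pool, where miR-126-3p and miR-191 were at the floor. The 3 myeloid miRNAs (miR-223, miR-142-3p and miR-142-5p) summed to 877 and 440 units in the Tn+ pools, against 288 in the Tn- pool, where miR-142-3p was at the floor. miR-223 stands in both lists. The 2 lymphocyte miRNAs (miR-150 and miR-342-3p) summed to 418 and 136 units in the Tn+ pools, against 25.3 in the Tn- pool, where miR-342-3p was at the floor. The median log2 ratio was 3.23 for the platelet, 1.55 for the myeloid and 3.51 for the lymphocyte list. All 3 sums were higher in Tn+ pool 1 than in Tn+ pool 2, with miR-223 the largest part of the platelet and myeloid sums in both (719 and 225 units in the Tn+ pools, against 136 in the Tn- pool). miR-142-5p went the other way, with 124 and 201 units in the Tn+ pools, against 150 in the Tn- pool. The part of these cells in the members' values was not tested. Higher by 2-fold or more in each Tn+ pool were 2 of the platelet, 1 of the myeloid and 2 of the lymphocyte miRNAs. The share by this rule was 12.0% of all probes and 46.7% of the 60 measured above every floor.

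Other miRNAs that serve as serum references were read beside miR-16. Of 7 such probes, miR-24, miR-103 and let-7a were at the floor in every pool. miR-93, miR-191 and miR-425 were higher by 2-fold or more in each Tn+ pool and at the floor in the Tn- pool. miR-425 had 42.9 and 42.0 units in the Tn+ pools, and miR-93 had 38.4 and 21.3. miR-484 had 5.26 units and the floor in the Tn+ pools, against 3.73 units in the Tn- pool. None passed limma over all probes.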

How the data were processed

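Per the labels' protocols, RNA from 200 µL of serum was eluted in 20 µL and some 30 ng hybridized over 16.5 h. The assay, NanoString nCounter, counts barcoded probes without amplification. According to the design text, the authors made the deposited normalized signal in nCounter Advanced Analysis. The submitters' processing notes list R 4.4. Which probes set the scale, how background was taken off and how the floor arose is not given in the sources used here. A second deposited table held the same signal (1698 of 1698 values equal). Depth in raw counts is unknown, so no counting interval is given.

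Pools were grouped by title. Log2(signal + 1) was fitted with limma 3.58.1 in R 4.3.3 (lmFit, eBayes) across all 566 probes without a covariate, with Benjamini-Hochberg adjustment. This leaves 1 residual degree of freedom, from the Tn+ pools, so Tn- serum is taken to vary alike. The fit was tested on simulated data: its ratios followed those simulated, but over all probes more of its calls were false than the threshold allows. The filter at the floor was not simulated. Ratios, ranks and balances were computed in Python 3.11.15 (numpy 2.4.6, pandas 2.3.3). Members, lists and rules were chosen with earlier results of these data known. Named besides the members were probes sharing their seed or of close name, the 3 nearest profiles of each, blood-cell and reference lists and miR-23a; miR-669h-5p was added after its values were seen. Sequences and gene positions are RefSeq's (GRCm38.p6). Alternatives were the pseudocount, low-value filters, 4 scalings, values under 3 grid steps, and leaving out each Tn+ pool. Moving a partner by 3 grid steps was chosen after seeing the data.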

Additional observations from a re-analysis of the deposited data

How the results depend on the processing

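No paired analysis was possible because the Tn- group has 1 pool, so the groups share fewer than 2 replicate numbers. With limma on the 259 probes measured above the floor in any pool, 29 probes (11.2%) passed, all higher in Tn+ serum, among them 2 members: miR-15a (log2 ratio 4.88, limma adjusted p = 0.00106) and miR-16 (3.49, adjusted p = 0.0258). With the 58 probes of a mean of 10 or more, 32 passed, among them the same 2 members at the same ratios. Both fits test fewer probes and pool the SE over them. Both also admit probes largely through Tn+ signal. miR-15a and miR-15b, at 1.58 and 6.96 units in the Tn- pool, reach a mean of 10 only through the Tn+ pools. The calls of both fits are therefore not read as support. With a pseudocount of 5, the log2 ratio was 3.63 for miR-15a, 3.46 for miR-16 and 2.27 for miR-15b. An unadjusted limma p under 0.05 was then reached by miR-16 but no longer by miR-15a. Under the 4 scalings miR-16 did not reach it, and miR-15a did only with the 100 highest probes and with equal totals. With values under 3 grid steps set to 3 steps, the log2 ratio was 4.17 for miR-15a, 3.49 for miR-16 and 2.61 for miR-15b. Setting values to the same number leaves many probes with hardly any spread, so the p-values and calls of that fit are not read. Scaling separates the shared floors of the pools, and 336 to 463 of 566 probes then passed, so these calls are not read either. miR-15a passed after scaling to the 100 highest probes (2.75) and with equal totals (2.05), 1 member in each. miR-15b turned negative with equal totals, with miR-451 (-0.57) and without it (-0.082). Under these 3 scalings 1 member, miR-15a, was higher by 2-fold or more in each Tn+ pool, in place of 2. The share of all probes by this rule was not computed under them, and the Tn- value of miR-15a is near the floor. That count is therefore not read as particular to miR-15a. The log2 difference of miR-16 over miR-15a shrank to -0.17 with a pseudocount of 5 and to -0.54 with miR-15a raised by 3 grid steps, and that over both partners turned to 0.11 and 0.27. Leaving out a Tn+ pool gave -2.84 to -1.30 for miR-16 over miR-15a, -1.13 to 2.68 for miR-16 over miR-15b, and -1.64 to 0.78 over both partners. The log2 ratio of miR-15b was 0.37 without Tn+ pool 1 and 4.84 without Tn+ pool 2. The cause of the changes under other settings was not tested.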
